A study of Mus musculus with 6 samples.

Results

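The 10 genes described here code for subunits of the 2 Polycomb repressive complexes. They were taken from a list of symbols, Ezh1, Ezh2, Suz12, Eed, Jarid2, Mtf2, Rnf2, Ring1, Pcgf6 and Kdm2b, and all 10 were found among the 23420 gene rows of the count table. RNA was sequenced from mouse embryonic stem (ES) cells that carried a stably integrated lentivirus and were held in self-renewal. In 3 libraries (replicates 1, 2 and 3) the virus expressed wild-type KBP, and in the other 3 (replicates 4, 5 and 6) it expressed KBP(KK/RR), a mutant described as stable. KBP is a protein that binds kinesin motors, and every library carries a virus for one form or the other, so a level without virus is not part of the comparison. The labels give no strain, clone, passage or culture for the libraries, so p-values measure the spread between these libraries, which may be technical.

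Polycomb complexes keep developmental genes silent by marking histones. Polycomb repressive complex 2 (PRC2) methylates histone H3 at lysine 27 through EZH2 or its paralog EZH1, which need SUZ12 and EED for activity, and accessory subunits such as JARID2 and MTF2 bring the complex to its sites. Polycomb repressive complex 1 (PRC1) ubiquitinates histone H2A through RNF2 (also called RING1B) or its paralog RING1, and its PCGF subunit decides which form of the complex is built. In ES cells these complexes sit at CpG-rich promoters of lineage regulators, and loss of PRC2 leaves self-renewal possible while disturbing differentiation.

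Library totals ran from 24131743 to 32160411 counts. The smallest belonged to wild-type KBP replicate 3 (24131743) and KBP(KK/RR) replicate 5 (24300832). In log2 CPM (the CPM of a gene is its count relative to the scaled library total), the groups lay apart on the first principal component (31.1% of the variance), and on the second (20.8%) replicate 3 of wild-type KBP lay away from the other libraries. The count of the KBP gene (2510003E04Rik), which does not separate viral from endogenous transcripts, averaged 48.3 ± 1.30 CPM with the wild-type virus and 56.6 ± 2.88 CPM with the mutant virus (SD, n = 3 each). All 10 ES cell markers were tested, 1 (Fbxo15) was called higher (1.05% of all tested genes were), and their summed level ran from 6652 to 6751 CPM with wild-type KBP and from 6564 to 6840 CPM with KBP(KK/RR). The Fbxo15 call was absent in limma-voom, in limma on log2 of the deposited signal and with a trend on transcript length and GC content removed. The groups did not overlap for 5 of the 10 ES cell markers, 3 higher and 2 lower (11.8% and 10.5% of all tested genes). An unadjusted edgeR p under 0.05 was found for 4 of them. The 10 fibroblast or feeder markers summed to 20.3 to 23.2 CPM and 20.8 to 21.1 CPM in the same order, with Fap at 0 in every library, and of the 5 tested edgeR and limma-voom called 0, with 0 at an unadjusted p under 0.05. Of 9 neural markers 6 were tested and 1 (Ncam1) was called lower (2.07% of all tested genes were), with sums of 211.6 to 216.7 CPM and 207.3 to 214.7 CPM. An unadjusted p under 0.05 in edgeR was found for 3 of the 6 (18.6% of all tested genes). With the trend on length and GC content removed, Map2 was called higher as well.

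Of the 10 Polycomb genes, 1 changed between the groups: Jarid2 was lower in KBP(KK/RR) cells, by about 9.27%. All 10 passed the filter on low counts, and 0 rose. Across the transcriptome 448 of 14340 tested genes changed (3.12%), with 2.07% lower and 1.05% higher in KBP(KK/RR) cells (edgeR's quasi-likelihood test, Benjamini-Hochberg adjusted p under 0.05), and 1 call among 10 genes is too few to read as more or less than that background. The median log2 fold change (KBP(KK/RR) over wild-type KBP) was 0.01 over the 10 genes and -0.002 over all genes tested, and the former turned to -0.014 when a trend on transcript length and GC content was removed from each library. Of the 10 genes 6 had a positive and 4 a negative fold change. The groups did not overlap for 1 of the 10, as for 22.4% of all tested genes.

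**Figure D1:**
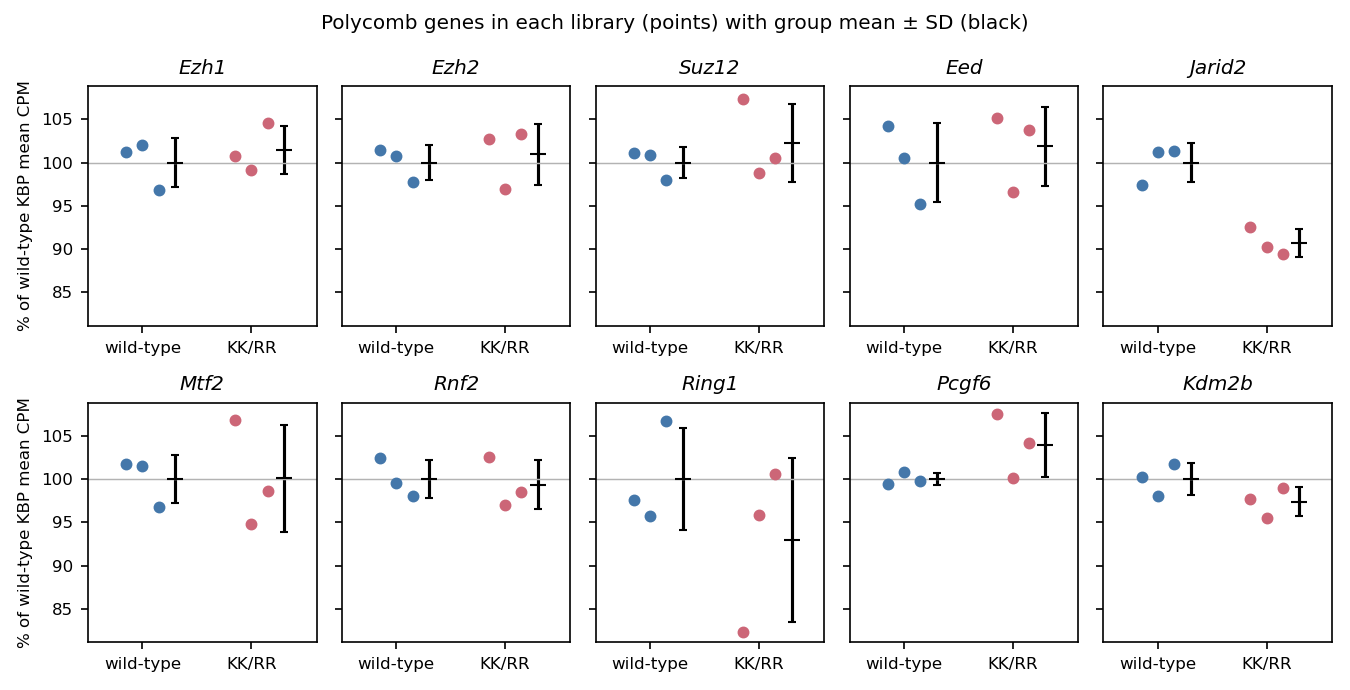
Level of each of the 10 Polycomb genes in each library, as a percentage of the mean CPM in wild-type KBP libraries (vertical axis, shared by all panels), with wild-type KBP in blue, KBP(KK/RR) in red and the group mean ± SD in black (n = 3). The 3 red points lie below the 3 blue points for Jarid2 alone, at 89.5% to 92.5% of the wild-type mean.

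Among the catalytic genes of PRC2, Ezh2 gave most of the RNA signal in these cells, and protein was not measured. Ezh2 (chromosome 6, 47530139 to 47595341 on GRCm38, minus strand, 20 exons in its longest transcript) measured 222.7, 221.1 and 214.5 CPM in wild-type KBP libraries 1 to 3 and 225.3, 212.6 and 226.7 CPM in KBP(KK/RR) libraries 4 to 6. The KBP(KK/RR) range enclosed the wild-type range. The log2 fold change was 0.01 with a 95% interval of -0.07 to 0.10 (edgeR adjusted p = 0.887). Its paralog Ezh1 (chromosome 11, 101191115 to 101226463, minus strand), which codes for the methyltransferase more typical of non-dividing cells, measured 26.7, 26.9 and 25.6 CPM against 26.6, 26.2 and 27.6 CPM. Its log2 fold change was 0.02 (interval -0.10 to 0.14, edgeR adjusted p = 0.881).

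Set per kilobase of merged exons, Ezh2 made up 90.3% ± 0.0969 of the Ezh1 and Ezh2 signal in wild-type KBP and 90.2% ± 0.187 in KBP(KK/RR) libraries (SD, n = 3 each). The difference of -0.0494 percentage points was smaller than the spread between libraries (exact two-sided permutation test, p = 0.8, the smallest possible p being 0.1). Per length, Ezh2 stood 9.24 times above Ezh1 on average over the 6 libraries, with a range of 9.05 to 9.43. With the length of the longest transcript in place of merged exons the ratio was 12.5.

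Suz12 and Eed code for the scaffold and the histone-binding subunit that every PRC2 contains. Suz12 (chromosome 11, 79993106 to 80034123, plus strand) measured 270.1, 269.5 and 261.7 CPM in wild-type KBP against 286.8, 263.8 and 268.6 CPM in KBP(KK/RR) libraries. Its highest value was in KBP(KK/RR) replicate 4, and the other two libraries of that group lay within the wild-type range. The log2 fold change was 0.03 (interval -0.05 to 0.12, edgeR adjusted p = 0.716). Eed (chromosome 7, 89954654 to 89980983, minus strand) measured 257.3, 248.0 and 235.1 CPM against 259.6, 238.5 and 256.1 CPM. The libraries of each group were spread widely for Eed, with coefficients of variation of 4.52% and 4.48%, and the groups overlapped. Its log2 fold change was 0.03 (interval -0.06 to 0.12, edgeR adjusted p = 0.787). For Ezh2, Suz12 and Eed the interval leaves out a change of the size seen for Jarid2 in either direction, and for Ezh1 its upper bound (0.1388) lies just under the size of that change (-0.1403).

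Jarid2 codes for an accessory subunit that recruits PRC2 and stimulates its activity. The gene lies on chromosome 13 from 44729474 to 44921643 (plus strand) and its longest transcript has 16 exons and 8353 bases, the longest of the 10. It measured 653.3, 679.1 and 680.0 CPM in wild-type KBP libraries 1 to 3 and 620.6, 605.1 and 600.1 CPM in KBP(KK/RR) libraries 4 to 6. Every KBP(KK/RR) library was below every wild-type KBP library, with wild-type replicate 1 and KBP(KK/RR) replicate 4 nearest to each other. Jarid2 fell from 670.8 ± 15.2 to 608.6 ± 10.7 CPM (SD, n = 3 each), a log2 fold change of -0.14 (SE 0.04, interval -0.22 to -0.06, edgeR adjusted p = 0.0379). As a percent change this was -9.27%, with an interval of -13.9% to -4.35%.

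Genes with long transcripts, as Jarid2 has, tended to be lower in KBP(KK/RR) libraries. Removing a smooth trend on transcript length and GC content from each library left a log2 fold change of -0.04 and no call (edgeR adjusted p = 0.490). The 1422 tested genes with a longest transcript of 6759 bases or more had a median log2 fold change of -0.095, and the 1424 genes with 1384 bases or fewer had one of 0.036. Among 509 other tested genes whose longest transcript was within 10% of the length of that of Jarid2, the median was -0.084, with quartiles of -0.169 and -0.007. The 1422 long genes deviated from their own means over the 6 libraries by a median of -0.004, 0.084 and 0.073 (log2) in wild-type KBP libraries 1 to 3 and by 0.048, -0.080 and -0.115 in KBP(KK/RR) libraries 4 to 6. Jarid2 deviated by 0.032, 0.088 and 0.090 and by -0.042, -0.078 and -0.090 in the same libraries. In each group the libraries therefore ran in the same order for long transcripts and for Jarid2, except that wild-type replicates 2 and 3 were nearly equal and changed places. The trend was fitted on length and GC content together, so their parts were not separated. How much of the Jarid2 difference goes with length was not tested beyond these values.

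The Jarid2 call also depended on single libraries. Leaving out replicate 2 or 3 of wild-type KBP ended it (edgeR adjusted p = 0.209 and 0.0780), as did leaving out replicate 5 or 6 of KBP(KK/RR) (0.0990 and 0.189), although the log2 fold change stayed between -0.16 and -0.13 in all 6 omissions. Of 9 primitive endoderm markers 8 were tested, 7 had a negative log2 fold change (7282 of 14340 over all tested genes) and 2, Pdgfra and Col4a1, were called lower (2.07% over all tested genes). The groups did not overlap for 4 of the 8, all lower in KBP(KK/RR), where 10.5% of all tested genes were lower without overlap. An unadjusted edgeR p under 0.05 was found for 4 of the 8 (18.6% of all tested genes). With the trend on length and GC content removed only Pdgfra was called, and limma-voom called Col4a1 and Cubn. The 9 markers summed to 126.6 to 150.1 CPM with wild-type KBP and to 106.7 to 119.4 CPM with KBP(KK/RR), and none was at 0 in every library. Col4a1, a basement membrane collagen gene, made up most of that sum. Without it the sums were 21.6, 26.1 and 27.7 CPM against 21.8, 20.1 and 17.3 CPM, and the groups overlapped. Their part in the Jarid2 result was not tested. In bulk RNA, fewer cells of a type and less RNA per cell cannot be told apart.

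**Figure D2:**
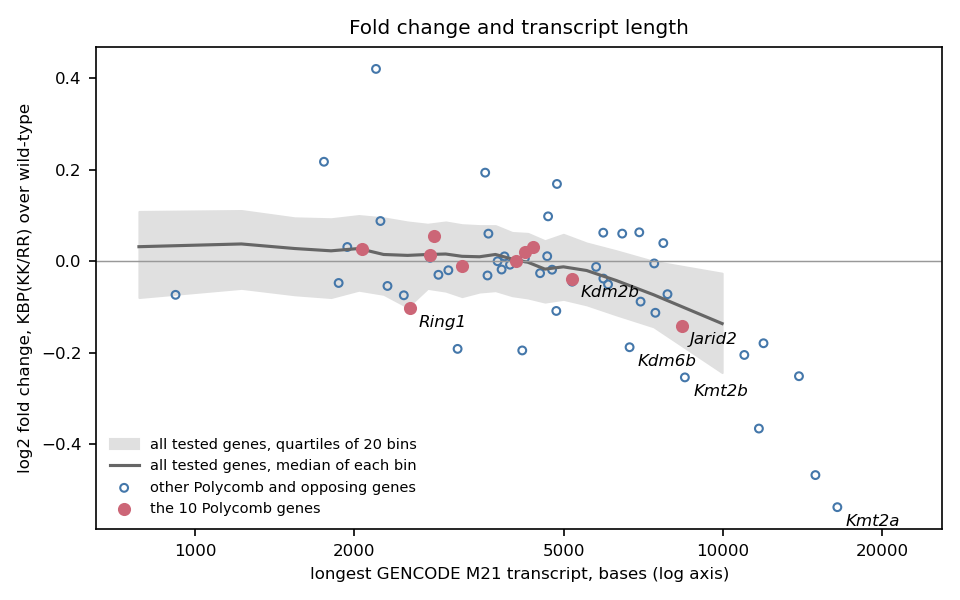
Log2 fold change (vertical axis) against the length of the longest annotated transcript in bases (horizontal log axis), for the 10 Polycomb genes (red), other Polycomb and opposing genes (open blue circles) and all tested genes (grey line, median of each of 20 bins of equal size, with quartiles shaded). The median of all genes falls from 0.032 in the bin of shortest transcripts to -0.136 in the bin of longest, and Jarid2 lies inside the shaded quartiles.

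Mtf2, the gene for a Polycomb-like protein that binds unmethylated CpG-rich DNA and helps PRC2 find its sites, had almost the same mean in both groups. Mtf2 (chromosome 5, 108065674 to 108109004, plus strand) measured 418.0, 416.8 and 397.5 CPM in wild-type KBP against 439.0, 389.5 and 404.9 CPM in KBP(KK/RR) libraries. The highest and the lowest of the 6 values were both in the KBP(KK/RR) group. The log2 fold change was 0.00 (0.0013, interval -0.09 to 0.09, edgeR adjusted p = 0.991). Whether Jarid2 and Mtf2 differ in their response was not tested.

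Rnf2 and Ring1 code for the alternative E3 ubiquitin ligases at the heart of every PRC1. Rnf2 (chromosome 1, 151458004 to 151500955, minus strand) measured 165.9, 161.2 and 158.9 CPM in wild-type KBP against 166.1, 157.2 and 159.5 CPM in KBP(KK/RR) libraries, so that the groups covered almost the same range. Its log2 fold change was -0.01 (interval -0.09 to 0.07, edgeR adjusted p = 0.932). Ring1 (chromosome 17, 34020792 to 34024680, minus strand, 3 exons) was the least counted of the 10, with 288 to 377 reads per library. It measured 12.0, 11.7 and 13.1 CPM against 10.1, 11.8 and 12.4 CPM, a log2 fold change of -0.10. Only KBP(KK/RR) replicate 4 lay below the wild-type range. The interval of -0.28 to 0.07 is the widest of the 10 genes and includes both 0 and the Jarid2 value (edgeR adjusted p = 0.538). A change of the Jarid2 size in Ring1 was therefore not excluded by these libraries. Its coefficient of variation was 5.87% in wild-type KBP and 10.2% in KBP(KK/RR) libraries, where counting alone gives 5.53% on average.

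Per kilobase of merged exons Rnf2 made up 91.2% ± 0.601 of the Rnf2 and Ring1 signal in wild-type KBP and 91.7% ± 0.956 in KBP(KK/RR) libraries (SD, n = 3 each). The difference of 0.514 percentage points did not exceed the spread between libraries (exact two-sided permutation test, p = 0.6). Both complexes thus had a major and a minor catalytic gene in these libraries, with Rnf2 10.8 times above Ring1 on average (range 9.54 to 12.9).

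Pcgf6 codes for the PCGF subunit of the variant complex PRC1.6, which is known for silencing germline genes in ES cells. Pcgf6 (chromosome 19, 47033617 to 47050906, minus strand) measured 64.0, 64.9 and 64.2 CPM in wild-type KBP against 69.2, 64.5 and 67.0 CPM in KBP(KK/RR) libraries. The wild-type values were tightly grouped, with a coefficient of variation of 0.712%, below the 2.34% that counting alone gives on average at its depth, and KBP(KK/RR) replicate 5 fell among them. The log2 fold change of 0.06 (interval -0.04 to 0.15) was not called (edgeR adjusted p = 0.543). Kdm2b, whose product binds unmethylated CpG islands and anchors the variant complex PRC1.1 there, lies on chromosome 5 from 122870665 to 122989823 (minus strand). It measured 209.2, 204.5 and 212.1 CPM against 203.8, 199.3 and 206.4 CPM, so each group held values within the range of the other. Its log2 fold change was -0.04 (interval -0.12 to 0.04, edgeR adjusted p = 0.642).

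**Figure D3:**
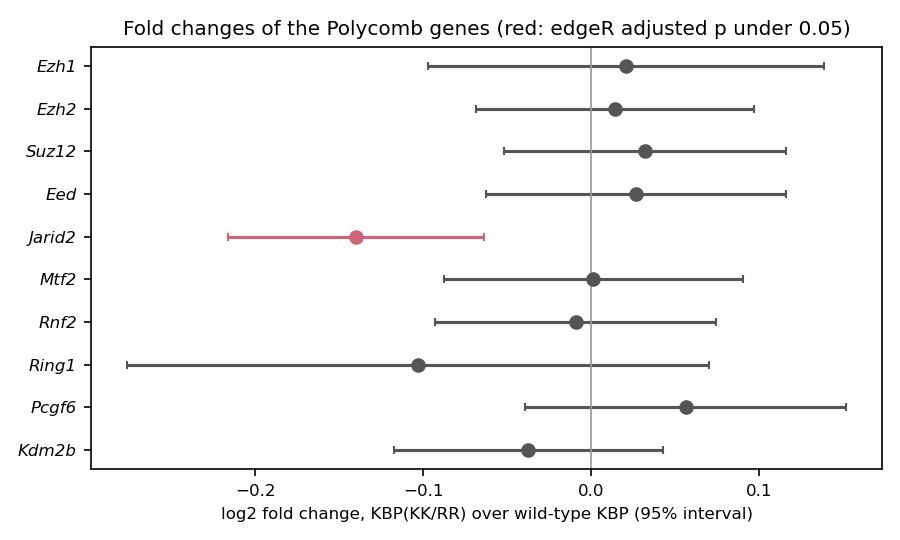
Log2 fold change of each Polycomb gene, KBP(KK/RR) over wild-type KBP (horizontal axis), with its 95% interval from the edgeR fit. The interval of Jarid2 (red) runs from -0.22 to -0.06, and the intervals of the other 9 genes (grey) include 0.

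Some libraries were low for many of the genes at once. KBP(KK/RR) replicate 5 was the lowest library of its group for 8 of the 10 genes, all except Jarid2 and Ring1, and wild-type KBP replicate 3 was the lowest of its group for 6 (Ezh1, Ezh2, Suz12, Eed, Mtf2 and Rnf2). These were the 2 libraries with the smallest totals. KBP(KK/RR) replicate 4 was the highest of its group for 6 genes. The sum over the 10 genes was 2299, 2304 and 2263 CPM with wild-type KBP, and 2307, 2168 and 2229 CPM with KBP(KK/RR). Without Jarid2 the sums were 1646, 1625 and 1583 CPM against 1687, 1563 and 1629 CPM, and the KBP(KK/RR) range enclosed the wild-type range. The part of library depth in these orders was not tested.

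The 10 genes spanned a 20.2-fold range of level per length. Averaged over the 6 libraries, Mtf2 stood highest at 72.1 CPM per kilobase of merged exons, followed by Jarid2 at 65.8, Eed at 65.1, Suz12 at 54.6, Rnf2 at 39.1 and Ezh2 at 33.0. Kdm2b at 18.9 and Pcgf6 at 13.05 came next, and Ring1 (3.65) and Ezh1 (3.575) were lowest. The ranges of Mtf2 and Jarid2, of Jarid2 and Eed, and of Ring1 and Ezh1 overlapped over the 6 libraries, whereas the other neighbours were apart in all 6. With merged exons as the length, the order of Jarid2 and Eed differed by group. In wild-type KBP libraries 1 to 3 Jarid2 measured 67.24, 69.90 and 69.99 CPM per kilobase and Eed 67.22, 64.78 and 61.42, and in KBP(KK/RR) libraries 4 to 6 Jarid2 measured 63.88, 62.29 and 61.77 and Eed 67.81, 62.31 and 66.89. Jarid2 was thus above Eed in all 3 wild-type KBP libraries and below it in all 3 KBP(KK/RR) libraries, and in 1 library of each group they were nearly equal. The order depended on the gene model. With the longest transcript as the length, Eed stood first at 120.5 CPM per kilobase, Ezh2 moved from sixth to the third place at 79.1, and Ring1 and Ezh1 stayed the lowest pair. Jarid2 then stood well below Eed, at 76.58, so their change of order between the groups was found with merged exons only. The place of Ezh2 among the core genes is therefore uncertain, whereas Ezh1 and Ring1 were lowest with either length.

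**Figure D4:**
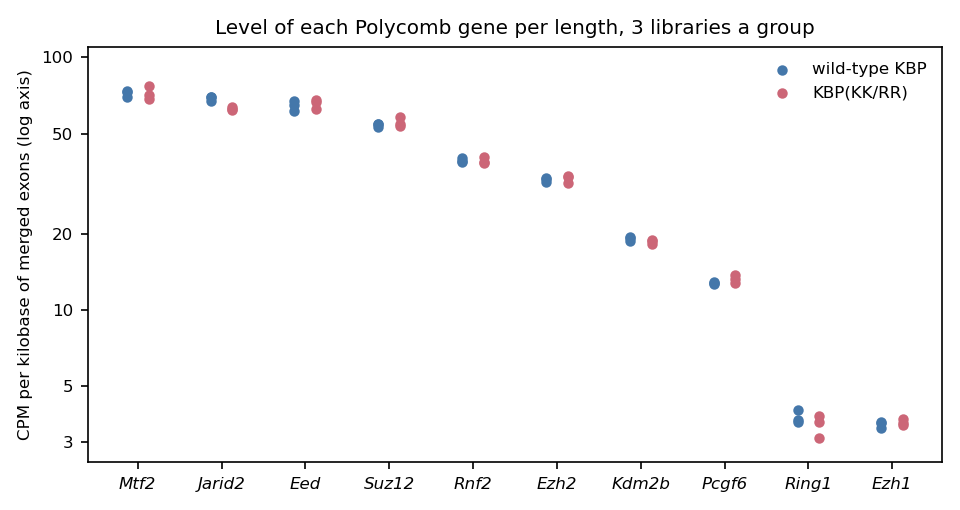
Level of each Polycomb gene in CPM per kilobase of merged exons (vertical log axis) in the 3 wild-type KBP (blue) and 3 KBP(KK/RR) libraries (red), ordered by the mean of the 6. Mtf2, Jarid2 and Eed lead at 65.1 to 72.1, and Ring1 and Ezh1 lie at 3.65 and 3.575.

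Reads of a few of these genes could be shared with neighbours. On GRCm38 exons of 6 of the 10 genes overlap an exon of another annotated gene, in each case at least one on the opposite strand. The largest single overlap, as a share of merged exon bases, was 6.93% for Mtf2 (395 bases shared with Tmed5). Of the 5 overlapping genes that the count table holds, Tmed5, Trmt1l, Rnf34 and A930024E05Rik gave no call, with log2 fold changes from -0.02 to 0.06 and edgeR adjusted p of 0.744 to 0.877, and E230029C05Rik was nearly uncounted. Jarid2 shares no exon with another gene. The sources used here do not give the strand setting of the counting.

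The remaining genes listed with PRC2, not all of them for subunits, gave no call. Of 8 tested, which included the histone chaperones Rbbp4 and Rbbp7, 0 changed by edgeR and 4 had an unadjusted p under 0.05 (18.6% of all tested genes did). DESeq2 (adjusted p for 6 of them) and limma-voom (all 8) also called 0. The median log2 fold change was 0.03, with a range from -0.19 for Phf1 to 0.42 for Ezhip (AU022751 in the files). Both genes were named after their values were seen (edgeR adjusted p = 0.179 and 0.116). Ezhip was low, at 2.285 ± 0.2231 CPM with wild-type KBP and 3.029 ± 0.1775 CPM with KBP(KK/RR), and its groups did not overlap. This held for 2 of the 8, both higher, where 11.8% of all tested genes were higher without overlap. Epop (E130012A19Rik in the files), a subunit of one PRC2 subtype, had the highest level per kilobase of merged exons at 151.7 CPM (with the longest transcript as the length Rbbp7 was higher, at 171.2) and averaged 357.6 ± 19.0 CPM with wild-type KBP against 344.4 ± 32.1 CPM with KBP(KK/RR) (log2 fold change -0.05, edgeR adjusted p = 0.700). Rbbp4 measured 503.9 ± 13.9 and 539.4 ± 15.6 CPM with groups that did not overlap (0.10, edgeR adjusted p = 0.169), and Rbbp7 372.4 ± 11.3 and 395.8 ± 14.8 CPM (0.09, edgeR adjusted p = 0.237).

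Canonical PRC1, which reads the PRC2 mark through its CBX subunits, also gave no call. Of its 12 tested genes 0 changed by edgeR and 1 had an unadjusted p under 0.05, DESeq2 called 0 of 9 and limma-voom 0 of 12, and the median log2 fold change was -0.02. Removing the trend on length and GC content turned that median to 0.03. The groups did not overlap for 3 of the 12, 2 higher and 1 (Pcgf2) lower (11.8% and 10.5% of all tested genes). Phc1, for a polyhomeotic subunit that lets the complex polymerise, was the highest at 181.4 CPM per kilobase and measured 958.7 ± 11.8 against 963.3 ± 52.3 CPM (log2 fold change 0.01). Cbx7, the main CBX gene of ES cells, measured 263.1 ± 9.10 and 254.2 ± 13.3 CPM (-0.05), and the PCGF gene Pcgf2 measured 106.0 ± 3.25 and 100.7 ± 3.45 CPM (-0.07, edgeR adjusted p = 0.380).

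Of 18 variant PRC1 genes 1 rose and 1 fell, where 1.05% and 2.07% of all tested genes did. With the trend on length and GC content removed, Bcor, for a PRC1.1 subunit, was called higher as well and Fbrs was not called. Fbrs, whose product belongs to complexes built on PCGF3 or PCGF5, fell from 48.1 ± 1.23 to 42.0 ± 1.70 CPM (log2 fold change -0.19, edgeR adjusted p = 0.0371). Every KBP(KK/RR) value for Fbrs was below every wild-type value. The groups did not overlap for 4 of the 18, 2 higher and 2 lower (11.8% and 10.5% of all tested genes). The Fbrs call was lost in each omission of a library (edgeR adjusted p 0.0539 to 0.138), in DESeq2 (0.0572), in limma-voom (0.0549), with upper-quartile scaling (0.0599) and with the trend on length and GC content removed (0.120). Skp1a, for an adaptor shared by PRC1.1 and SCF ubiquitin ligases, rose from 280.3 ± 13.04 to 325.9 ± 12.6 CPM (0.22, edgeR adjusted p = 0.00545, 0.0608 when replicate 6 is left out). Wdr5 (370.3 ± 5.05 and 362.8 ± 8.93 CPM) and Rybp (402.2 ± 1.28 and 395.0 ± 13.1 CPM), both high in level per length, had log2 fold changes of -0.03 and -0.03. The median of the 18 was -0.015, and it turned to 0.003 with upper-quartile scaling.

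Among the genes of enzymes that oppose Polycomb, Kmt2b and Kdm6b fell. Of 9 tested, 2 fell and 0 rose, where 2.07% of all tested genes fell. A negative log2 fold change was found for 8 of the 9 and for 7282 of all 14340, and the median was -0.19 against -0.002. The list itself was not tested. Kmt2b (Wbp7 in the files), a histone H3 lysine 4 methyltransferase of bivalent promoters, fell from 257.7 ± 9.77 to 216.2 ± 17.2 CPM (-0.25, SE 0.05, edgeR adjusted p = 0.00853). Kdm6b, a demethylase that removes the PRC2 mark, fell from 90.4 ± 1.02 to 79.4 ± 1.45 CPM (-0.19, SE 0.04, edgeR adjusted p = 0.0183). In both genes every KBP(KK/RR) library was below every wild-type library. The groups did not overlap for 3 of the 9, these 2 lower and 1 (Bap1) higher, where 10.5% and 11.8% of all tested genes were. With the trend on length and GC content removed, 0 of the 9 were called by edgeR (1 with an unadjusted p under 0.05), the median was -0.05, and Kmt2b and Kdm6b had log2 fold changes of -0.08 and -0.05 (edgeR adjusted p 0.213 and 0.473). Leaving out replicate 3 or 6 ended the Kmt2b call (edgeR adjusted p 0.0700 and 0.0649), and leaving out replicate 2 or 6 ended that of Kdm6b (0.121 and 0.109).

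Kmt2a, for another lysine 4 methyltransferase, varied widely between libraries. Kmt2a (Mll1 in the files, named after its values were seen), with a longest transcript of 16470 bases, averaged 147.2 ± 31.5 CPM with wild-type KBP and 101.5 ± 27.2 CPM with KBP(KK/RR), a log2 fold change of -0.54 that did not pass the test (edgeR adjusted p = 0.411). The spread was also wide for Kmt2c (Mll3 in the files, 14967 bases), at 124.3 ± 24.15 and 89.84 ± 22.13 CPM (-0.47, edgeR adjusted p = 0.425). The variant PRC1 gene Mga (13931 bases) measured 273.9 ± 38.69 and 230.1 ± 41.92 CPM (-0.25, edgeR adjusted p = 0.550). Kmt2c and Mga were likewise named after their values were seen. Asxl1 and Bap1, subunits of the deubiquitinase that removes the PRC1 mark, had log2 fold changes of -0.09 and 0.01 (edgeR adjusted p 0.285 and 0.912). Bap1 measured 151.9 ± 0.711 and 153.1 ± 0.165 CPM, with groups that did not overlap, and Asxl1 209.8 ± 6.97 and 197.3 ± 11.1 CPM.

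Genes listed here as Polycomb targets of ES cells were mostly at low levels, and their silencing by Polycomb was not measured. Of 52 such regulators in the table, 22 did not pass the filter on low counts, 30 were tested, 1 rose and 0 fell, where 1.05% of all tested genes were called higher. The riser was T, the gene for brachyury, at 4.37 ± 0.511 CPM with wild-type KBP against 6.17 ± 0.400 CPM with KBP(KK/RR) (log2 fold change 0.49, edgeR adjusted p = 0.0168). Leaving out replicate 3 or 6 ended that call (0.0719 and 0.121). The median of the 30 was 0.12 (0.115) against -0.002 for all genes, and 21 were positive (7058 of 14340 over all tested genes). The groups did not overlap for 6, all higher in KBP(KK/RR) cells, where 11.8% of all tested genes were higher without overlap and 22.4% did not overlap in either direction. Some of the 6 had few reads. Nr2f2, the highest log2 fold change of the list, had 10, 16 and 6 reads with wild-type KBP and 18, 15 and 26 with KBP(KK/RR). Evx1 had 19, 14 and 13 against 24, 20 and 35. DESeq2 gave an adjusted p to 1 of the 30, Neurod1, and did not call it.

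Summed over all 52 genes, the targets measured 93.3, 87.9 and 96.2 CPM with wild-type KBP, and 97.4, 93.0 and 104.5 CPM with KBP(KK/RR), and the groups overlapped. Neurod1, the proneural factor gene with the highest level per length, made up much of that sum at 21.3 ± 0.870 and 21.6 ± 1.43 CPM (log2 fold change 0.03, edgeR adjusted p = 0.865). Without Neurod1 the sums were 71.8, 67.6 and 74.2 CPM against 75.1, 73.0 and 82.1 CPM, and KBP(KK/RR) replicate 5 still lay within the wild-type range. The tumour suppressor locus Cdkn2a, a classic PRC1 and PRC2 target, measured 5.29 ± 0.878 and 6.51 ± 0.339 CPM (0.32, edgeR adjusted p = 0.124). En2, a homeobox gene, measured 10.5 ± 0.893 and 10.5 ± 1.01 CPM (0.01, edgeR adjusted p = 0.969).

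**Figure D5:**
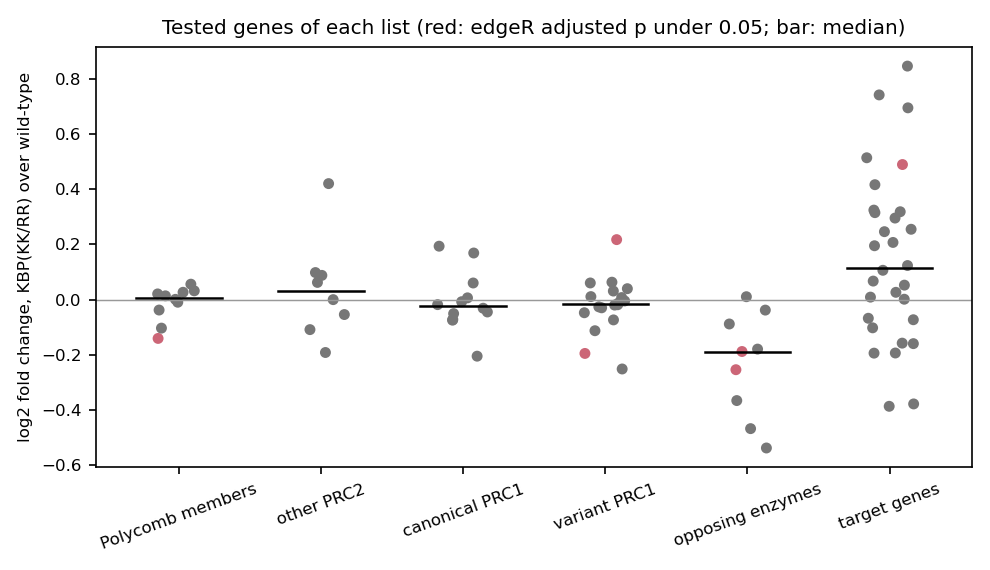
Log2 fold change, KBP(KK/RR) over wild-type KBP (vertical axis), of every tested gene of each list (points, spread sideways at random), with called genes in red and the list median as a black bar. The 10 Polycomb genes lie between -0.14 and 0.06, the opposing enzymes have a median of -0.19 and the target genes spread from -0.39 to 0.85.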

How the data were processed

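Total RNA was depleted of ribosomal RNA and made into ScriptSeq v2 libraries, per the labels' protocols. The submitters' processing notes name bcl2fastq, TopHat, HTSeq and DESeq2 and the builds mm10 and GRCm38, while the sources used here do not give the annotation, strand setting or filters. The authors deposited raw counts per gene symbol and a normalized signal. With 1 factor per library removed, 100% of the signal values above 0 came out as whole reads within 0.01, and 0 of them differed from the raw counts. Raw counts of 6 libraries were tested with edgeR 4.0.16 under R 4.3.3 (filterByExpr, TMM, robust quasi-likelihood fit, group as the term), with Benjamini-Hochberg adjustment over all tested genes. CPM uses TMM-scaled totals, and intervals are 95%. Positions, merged exons and longest transcripts came from GENCODE M21 on GRCm38, with a length for 23025 of 23420 symbols. List symbols were matched by name or RefSeq synonym, and Kmt2d was not matched. Alternatives were DESeq2 1.42.0, limma 3.58.1 (voom, or on log2 of the deposited signal plus 1), other scalings and filters, structural RNAs left out, splines (5 degrees of freedom) on length and GC content, and each library left out. The test on recovered reads was added after seeing the data. The code was tested on simulated data. There edgeR recovered 6% of genes altered by a factor of 1.1, which is near the size of the Jarid2 change. Recovery was 42.9% at a factor of 1.2, 86% at 1.5 and 90% at 2. Among 132 calls in the simulation 20 were false, and 2 genes were called when none had been altered. The absence of a call alone therefore does not exclude a change of the Jarid2 size. Replicates differed by more than counting noise (chi-square per degree of freedom 2.69 to 7.19). Named genes were the 10 members, the called genes of each list and the 3 highest per length. Members and lists were chosen with earlier results of these data known.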

Additional observations from a re-analysis of the deposited data

How the results depend on the processing

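No paired analysis was made, because the labels do not say whether libraries of the groups were made in pairs. Of the 10 Polycomb genes 1 was called, and 0 were with upper-quartile scaling, with limma on log2 of the deposited signal plus 1 (Jarid2 adjusted p 0.0685 and 0.0609) and with the trend on length and GC content removed. The number ran from 0 to 1 with 1 library left out and was 1 in the other alternatives. Jarid2 was lower in all 17 alternatives and called in 10. The alternative on recovered whole reads, counted among both, used the same counts as the main test, so its outcome was fixed in advance. The median over the 10 genes moved by less than the spread between libraries (0.0354) in each but changed sign, running from -0.015 to 0.038 with 1 library left out. The 448 calls over all genes became 966 with no filter on low counts, 270 with limma-voom, 279 with limma on log2 signal, 684 with the trend removed and 122 to 767 with 1 library left out (122 without KBP(KK/RR) replicate 6, 767 without replicate 4). Upper-quartile scaling gave 235 higher and 205 lower, against 151 and 297. Some fold changes turned sign, all of genes called in none of the 17 alternatives, and the cause was not tested. With the trend removed these were Ezh2 (-0.021), Eed (-0.007), Mtf2 (-0.035), E130012A19Rik (0.041), Cbx7 (0.043) and Neurod1 (-0.011). Upper-quartile scaling turned Rnf2 (0.009), and limma on log2 signal turned Mtf2 (-0.001). With 1 library left out the log2 fold change ran from -0.001 to 0.039 for Ezh1, -0.003 to 0.042 for Ezh2, -0.005 to 0.056 for Suz12, -0.007 to 0.063 for Eed, -0.049 to 0.039 for Mtf2, -0.033 to 0.008 for Rnf2, -0.039 to 0.035 for Phc1, -0.005 to 0.077 for Neurod1 and -0.074 to 0.074 for En2. The group difference in the Ezh2 share ran from -0.154 to 0.0277 percentage points and that in the Rnf2 share from -0.0321 to 0.857. The test on recovered whole reads, added after the data were seen, called the same 448 genes, since its counts were unchanged. Counting error was highest for Ring1 (coefficient of variation 5.53%) and lowest for Jarid2 (0.751%) among the 10 genes.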
